A study of Rattus norvegicus with 12 samples.

Results

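Glycolysis splits glucose into triose phosphates in its upper part and recovers ATP and NADH from them in its lower part, which ends in pyruvate. Lactate dehydrogenase then turns pyruvate into lactate and gives back the NAD+ that glyceraldehyde-3-phosphate dehydrogenase needs, and monocarboxylate transporters carry lactate together with a proton across the plasma membrane. Neurons are known for taking up lactate and glia for releasing it, while cycling cell lines often export it. Levels of 10 genes of this stretch, Tpi1, Gapdh, Pgk1, Pgam1, Eno1, Eno2, Pkm, Ldha, Slc16a1 and Slc16a3, were compared between cells without and with intact Vdac1, the gene for a channel of the outer mitochondrial membrane through which pyruvate, ADP and ATP pass.

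The cells were N27, an immortalised rat line from midbrain that is labelled as dopaminergic. The 7 tested cultures carried a CRISPR knockout of Vdac1 (KO 1 to KO 7), and the other 5 were wild type (WT 3 and WT 5 to WT 8). All were grown to 80% confluence with no further treatment named, and each gave 1 array with 60-base probes labelled in 1 colour. How many clones the knockout cultures came from, whether the cultures of a genotype were grown independently, and which part of Vdac1 was edited are not given in the sources used here. The p-values therefore measure the spread between these cultures and no more.

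The 10 genes were found by the gene name in the array files, with Pkm also listed there as Pkm2. They were 10 of 36181 names, with 25 of 45598 probes, of which 24 passed the filter on dim signal (well above background on at least 5 of 12 arrays). Every one of the 10 genes passed through at least 1 probe. A value is the log2 signal minus the array's 75th percentile, so a value of 0 is a signal equal to that percentile. Values of different probes are not compared with each other as levels.

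Some facts of the arrays touch several results. The arrays lay on 3 slides, each with both genotypes. Slide 1 held KO 6, KO 7, WT 3 and WT 8, and slide 3 held KO 4, KO 5, WT 6 and WT 7. Slide 2 held KO 1 to KO 3 and a single WT array, WT 5, so its difference mixes genotype with sample number. Low and high sample numbers were not balanced between genotypes on slides 1 and 3 either. Between 42.3% and 53.8% of the spots on an array were well above background, 0 were saturated, and the 75th percentile of signal spanned 120.1 to 691.8. On the first principal component, with 37.4% of the variance, the knockout arrays with low numbers, KO 1 to KO 4, had scores of -44.2 to -31.9, as had WT 3 (-41.8), and the other 7 arrays had scores of 14.8 to 45.2, so WT 3 stood apart from the other wild-type arrays and beside the knockout arrays that share its low sample numbers. For the members where WT 3 lay within the KO range, the difference is also given without it. Since its own value picked WT 3 out there, leaving it out tends to widen the difference, and the wider value is no added support. Such a difference keeps KO 1 to KO 4 but no WT array with a low number, so it mixes genotype with sample number. Vdac1 was at 1.20 at the lowest, 2.26 at the median and 2.68 at the highest in KO, against 3.61 in WT 3 and 3.07 to 3.16 in WT 5 to WT 8, a difference of -1.23 (SE 0.28, adjusted p = 0.0560) with no overlap of the groups. Of 10 markers each, 3 dopaminergic, 1 neuronal, 1 glial and 5 fibroblast or vascular genes passed the filter. The tyrosine hydroxylase gene Th was among them, and the dopamine transporter gene Slc6a3 and the decarboxylase gene Ddc were not. limma called 0 of these markers between genotypes over all arrays, and 1, the dopaminergic transcription factor gene Nr4a2 (-1.19, adjusted p = 0.143), had an unadjusted p under 0.05. Nr4a2 was well above background on 1 KO and 4 WT arrays, so it passed the filter mainly through the group where it is higher. In the neuronal, glial and fibroblast or vascular lists the smallest p belonged to Tubb3, a neuronal tubulin (-0.51, adjusted p = 0.606), the microglial chemokine receptor gene Cx3cr1 (-0.13, adjusted p = 0.852) and Pdgfrb, a mural cell receptor (-0.37, adjusted p = 0.431). The fibroblast collagen gene Col3a1, picked out after its values were seen, was well above background on 4 arrays and so was not tested. It read -6.03 to -4.79 in KO, against -6.52 in WT 3 and -3.55 to -2.74 in WT 5 to WT 8, and its part in the results below was not tested.

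The probes below carry the results that follow. Each is 60 bases long and is given 5′ to 3′ with its first base on the transcript and its place in build rn4 as the array files state it. The first pair shows that the Tpi1 probe and a probe filed under Tpi1l1, a gene named as like Tpi1, overlap on the minus strand of chromosome 4, at chr4:160934683-160935158, a span longer than the probe and so across an intron, and chr4:160934643-160934702. The places share 20 bases, at which 1 letter of the probes differs. Capitals mark the run of 16 bases that both hold.
Tpi1, base 443: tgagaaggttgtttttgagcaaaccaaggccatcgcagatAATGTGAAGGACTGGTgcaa
Tpi1l1, base 480: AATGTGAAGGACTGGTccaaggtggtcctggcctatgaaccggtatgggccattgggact
The second pair shows how alike probes of 1 Gapdh name can be. They start at bases 482 and 484, are placed at chr4:161283260-161283319 and chr4:161282185-161282218 on the minus strand, and share a run of 31 bases, in capitals.
Gapdh, base 482: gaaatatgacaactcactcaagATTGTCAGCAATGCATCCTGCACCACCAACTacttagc
Gapdh, base 484: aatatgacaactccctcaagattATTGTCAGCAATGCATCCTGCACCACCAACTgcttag
The third set holds the Ldha probe with the smallest adjusted p of that gene, at chr1:97411929-97411988 on the plus strand, and 2 probes for pyruvate kinase on chromosome 8. The Pkm probe at chr8:63504373-63504432 was not placed in an exon here, since no annotation of rn4 exons was used. The other is filed under LOC100364062, described in the files as M2 pyruvate kinase, and its place at chr8:63501121-63501180 is upstream of it on the plus strand.
Ldha, base 981: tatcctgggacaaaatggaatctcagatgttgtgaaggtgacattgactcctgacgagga
Pkm, base 1329: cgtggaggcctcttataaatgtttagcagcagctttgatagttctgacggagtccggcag
LOC100364062, base 930: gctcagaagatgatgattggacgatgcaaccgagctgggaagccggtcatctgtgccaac

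In KO cultures 9 of the 10 genes had a higher mean than in WT cultures, and 1 of them, Tpi1, passed the test across all genes (limma, Benjamini-Hochberg adjusted p under 0.05). The background for such a rise was 0.699% of 14739 features, and 0.394% for a fall. The median difference of the 10 genes was 0.57 on the log2 scale, against 0.04 over all features. At an unadjusted p under 0.05, 8 of the 10 were higher in KO and 0 lower, where the background is 9.36% higher and 6.24% lower. The exceptions were Eno2 and Slc16a1, the only member with a lower mean in KO. Tpi1 was also the only member whose 2 groups did not overlap, a pattern found in 1.85% of all features, with the reverse in 0.889%. These genes were chosen with earlier results of these data known, so the counts describe them and are no independent evidence of a direction. In bulk RNA a change in the share of cells and a change in RNA per cell cannot be told apart.

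**Figure D1:**
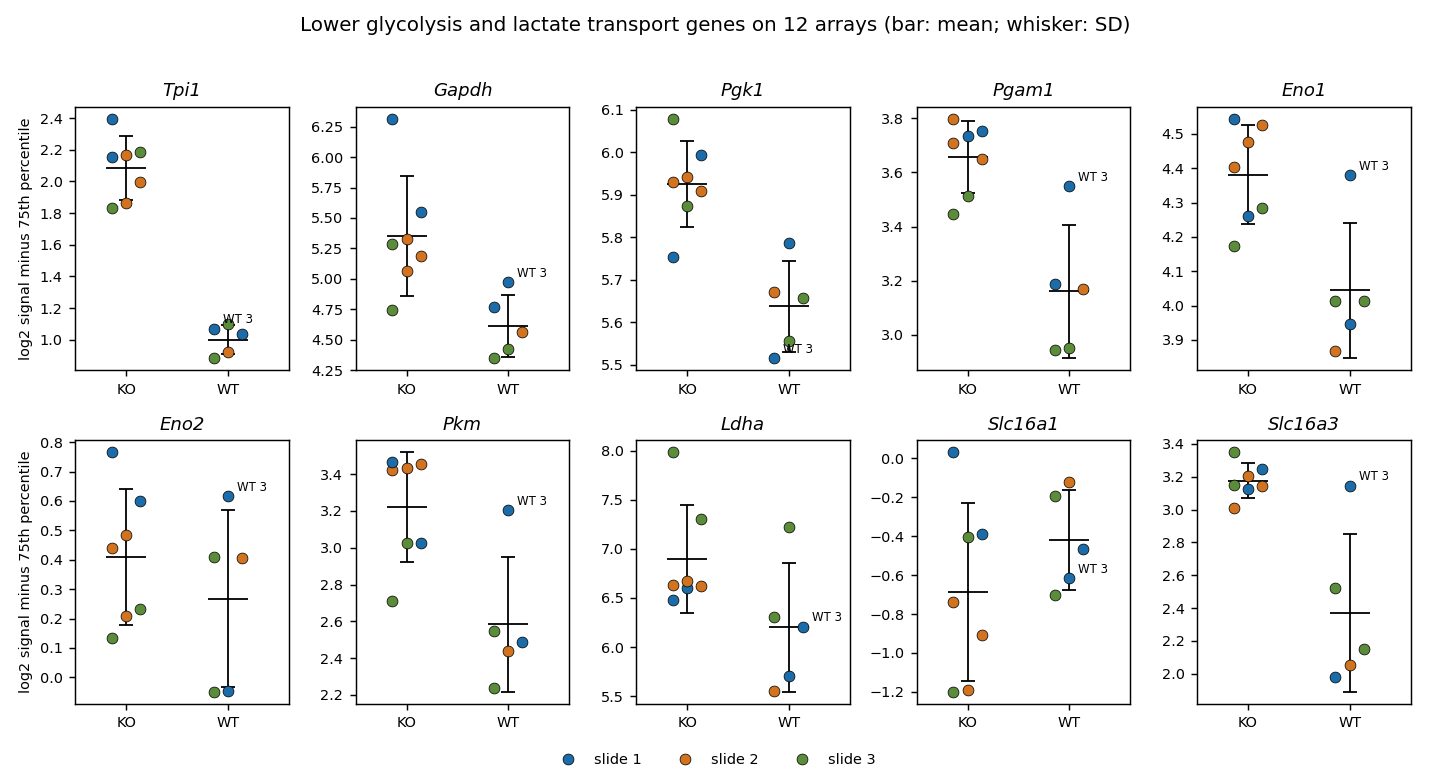
Signal of the 10 genes on every array (y axis: log2 signal minus the array's 75th percentile, 1 probe per gene; left: 7 KO arrays, right: 5 WT arrays; colour: slide; bar and whisker: mean and SD). The KO and WT points of Tpi1 are apart, and WT 3 sits within the KO range for Gapdh, Pgam1, Eno1, Eno2, Pkm, Slc16a1 and Slc16a3.

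Tpi1 encodes triosephosphate isomerase, which turns dihydroxyacetone phosphate into glyceraldehyde 3-phosphate and so brings both triose products of aldolase into the lower pathway. Its value was 1.83 at the lowest, 2.16 at the median and 2.39 at the highest in KO, against 1.07 in WT 3 and 0.92, 0.88, 1.10 and 1.04 in WT 5 to WT 8. Every KO array lay above every WT array, WT 3 included. Tpi1 rose by 1.08 (SE 0.13, adjusted p = 0.00424), 2.12-fold, with means of 2.09 ± 0.20 (SD, n = 7) in KO and 1.00 ± 0.09 (SD, n = 5) in WT. It ranked 3 by p among all features. The difference was 1.22 on slide 1, 1.09 on slide 2 and 1.02 on slide 3, and it passed the test without any 1 of the 12 arrays, with adjusted p from 0.00189 to 0.0298. Both Tpi1l1 probes, at bases 480 and 725, rose by 1.03 (adjusted p = 0.00707) and 1.06 (adjusted p = 0.00807) in the fit of all probes, and each passed without any 1 array too. By their coordinates all 3 probes lie at 1 place on chromosome 4, so they do not count as separate genes, and whether Tpi1 or a copy of it gave the signal cannot be told from the probes.

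Gapdh encodes the dehydrogenase that oxidises glyceraldehyde 3-phosphate and makes the NADH that lactate formation uses up. Its brightest probe read 4.75 at the lowest (KO 4), 5.28 at the median and 6.31 at the highest (KO 7) in KO, against 4.97 in WT 3 and 4.56, 4.35, 4.43 and 4.77 in WT 5 to WT 8. KO 4 lay among the WT arrays, and KO 7 stood above the other KO arrays. The difference was 0.74 (SE 0.23, adjusted p = 0.136), with 5.35 ± 0.49 (SD, n = 7) in KO and 4.61 ± 0.26 (SD, n = 5) in WT. It was 1.06 on slide 1, which held KO 7, 0.63 on slide 2 and 0.63 on slide 3, and it had an adjusted p of 0.0365 with slide as a block. Without WT 3 it was 0.83 (adjusted p = 0.0739).

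Gapdh was measured by 8 probes, and their differences ran from 0.68 at base 482 to 0.88 at base 181, all positive, with 0 called by limma and 8 at an unadjusted p under 0.05. An unadjusted p under 0.05 with a higher value in KO was found at 9.2% of all probes. In 2 of the 8, at bases 181 and 484, the groups did not overlap, against 1.74% of all probes with KO higher. At base 484 the KO arrays lay between 3.75 and 4.56, against 2.88 in WT 3 and 3.08, 3.58, 3.36 and 3.17 in WT 5 to WT 8, a difference of 0.78 (adjusted p = 0.0516). The probe at base 482, alike in its second part as printed above, read 3.22 to 4.23 in KO and 2.72 to 3.34 in WT, a difference of 0.68 (adjusted p = 0.153). WT 3 was the lowest array at bases 181 and 192, with 0.85 and 1.46, and the highest WT array at base 1121, so its place among the WT arrays depended on the probe.

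The rat genome holds many processed copies of Gapdh, and the array has probes for them. Of the 8 Gapdh probes, 6 share a run of at least 20 bases with a probe filed under another name, up to 38 bases at base 996, and the 2 probes at bases 1102 and 1121 share none. Of 59 further probes described as Gapdh or like it, 53 passed the filter. Their differences ran from 0.20 to 1.26, all 53 positive, with 13 called higher, against 0.704% of all probes. The pseudogene Gapdh-ps1 was among them, with 1.00 (adjusted p = 0.0369) at base 1132 and 1.03 (adjusted p = 0.0440) at base 1362. The first kept its call without KO 4, KO 5, KO 7 or WT 3 and lost it without any 1 of the other 8 arrays, where adjusted p reached 0.0951. The second kept it only without WT 3, and reached 0.128 otherwise. Both lost it with normexp, quantile normalization or the deposited value table, with adjusted p from 0.0552 to 0.101, and the second also with the bright-probe percentile (0.0551). Such probes can bind RNA of Gapdh itself, so their differences are not independent of the Gapdh probes.

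Pgk1 encodes phosphoglycerate kinase, the first of the lower steps to yield ATP. Its value was 5.75 at the lowest (KO 6), 5.93 at the median and 6.08 at the highest (KO 5) in KO, against 5.52 in WT 3 and 5.67, 5.66, 5.56 and 5.79 in WT 5 to WT 8. Only KO 6 and WT 8, both on slide 1, kept the groups from being apart. The difference was 0.29 (SE 0.11, adjusted p = 0.213), 1.22-fold, and it ranged from 0.22 to 0.37 over the 3 slides. WT 3 was the lowest WT array here.

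Pgam1 encodes phosphoglycerate mutase, which moves the phosphate from the third to the second carbon of glycerate. It read 3.45 at the lowest (KO 5), 3.71 at the median and 3.80 at the highest (KO 2) in KO, against 3.55 in WT 3 and 3.17, 2.95, 2.94 and 3.19 in WT 5 to WT 8. Only WT 3 reached into the KO range. The difference was 0.50 (SE 0.13, adjusted p = 0.0877) with all arrays and 0.59 (adjusted p = 0.0207) without WT 3. With slide as a block it was 0.48 (adjusted p = 0.0384). The muscle form Pgam2 was not well above background on any array.

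Enolase makes phosphoenolpyruvate. Eno1 encodes the widespread alpha form and Eno2 the gamma form, which is known as a marker of neurons. The brightest Eno1 probe, at base 1469, read 4.17 at the lowest (KO 4), 4.40 at the median and 4.54 at the highest (KO 7) in KO, against 4.38 in WT 3 and 3.87, 4.01, 4.01 and 3.95 in WT 5 to WT 8. WT 3 lay inside the KO range and the other WT arrays below it. The difference was 0.34 (SE 0.13, adjusted p = 0.216), 1.26-fold, and without WT 3 it was 0.42 (adjusted p = 0.0635). The Eno1 probe at base 731 gave 0.51 (adjusted p = 0.102), with KO between 2.77 and 3.03 and WT at 1.94 in WT 3 and 2.35, 2.74, 2.63 and 2.36 in WT 5 to WT 8. At that probe WT 3 was the lowest array and the groups did not overlap, whereas at base 1469 WT 3 was the highest WT array. The third Eno1 probe, at base 1395, gave 0.46 (adjusted p = 0.167).

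Eno2 read 0.13 at the lowest, 0.44 at the median and 0.76 at the highest in KO, against 0.62 in WT 3 and 0.41, -0.05, 0.41 and -0.05 in WT 5 to WT 8. The groups overlapped over most of their range, and the difference was 0.14 (SE 0.16, adjusted p = 0.717), or 0.23 (adjusted p = 0.447) without WT 3. Its dimmer probe at base 837 gave 0.42 (adjusted p = 0.316). Set against each other within each array, Eno1 and Eno2 did not pass a test of unequal response: the difference of their differences was 0.20 (exact two-sided permutation test over 792 splits, p = 0.188, adjusted p = 0.188 over 4 pairs). Eno1 against the muscle form Eno3 gave 0.43 (exact permutation p = 0.146, adjusted p = 0.188). A p of this size does not show that the forms respond alike.

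Pkm encodes the muscle-type pyruvate kinase, which makes the last ATP of the pathway, in an M1 and an M2 splice form that these values do not tell apart. Its brightest probe, at base 1911, read 2.71 at the lowest (KO 5), 3.42 at the median and 3.46 at the highest (KO 7) in KO, against 3.20 in WT 3 and 2.44, 2.55, 2.24 and 2.49 in WT 5 to WT 8. WT 3 was inside the KO range, and the other WT arrays were below every KO array. The difference was 0.64 (SE 0.19, adjusted p = 0.122) with all arrays and 0.79 (adjusted p = 0.0246) without WT 3. The probe at base 1586 gave 0.72 (adjusted p = 0.150).

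At base 1729 Pkm rose by 0.65 (SE 0.14, adjusted p = 0.0483), with 2.17 at the lowest (KO 5), 2.56 at the median and 2.85 at the highest (KO 7) in KO and 2.16 in WT 3 and 1.77, 1.97, 1.82 and 1.88 in WT 5 to WT 8. KO 5 and WT 3 almost met at this probe. The call was kept without KO 5 or WT 3 (adjusted p down to 0.0217) and lost without any 1 of the other 10 arrays (up to 0.145). It was also lost under each of the 4 other scalings, with adjusted p of 0.131 with normexp background correction, 0.0712 with quantile normalization, 0.0791 in the deposited value table and 0.0611 with the percentile over bright probes. The Pkm probe at base 1329, printed above, was well above background on 2 of 12 arrays, with values from -6.84 to -3.40, and was not tested. The probe filed under LOC100364062 rose by 0.94 (adjusted p = 0.0301) with no overlap of the groups. It kept its call without KO 4, KO 5, KO 6 or WT 3 and reached 0.0877 without others. By its coordinates this probe lies upstream of the Pkm probes on the same strand, and whether it reads Pkm was not tested. The liver and red cell gene Pklr was well above background on 2 arrays.

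**Figure D2:**
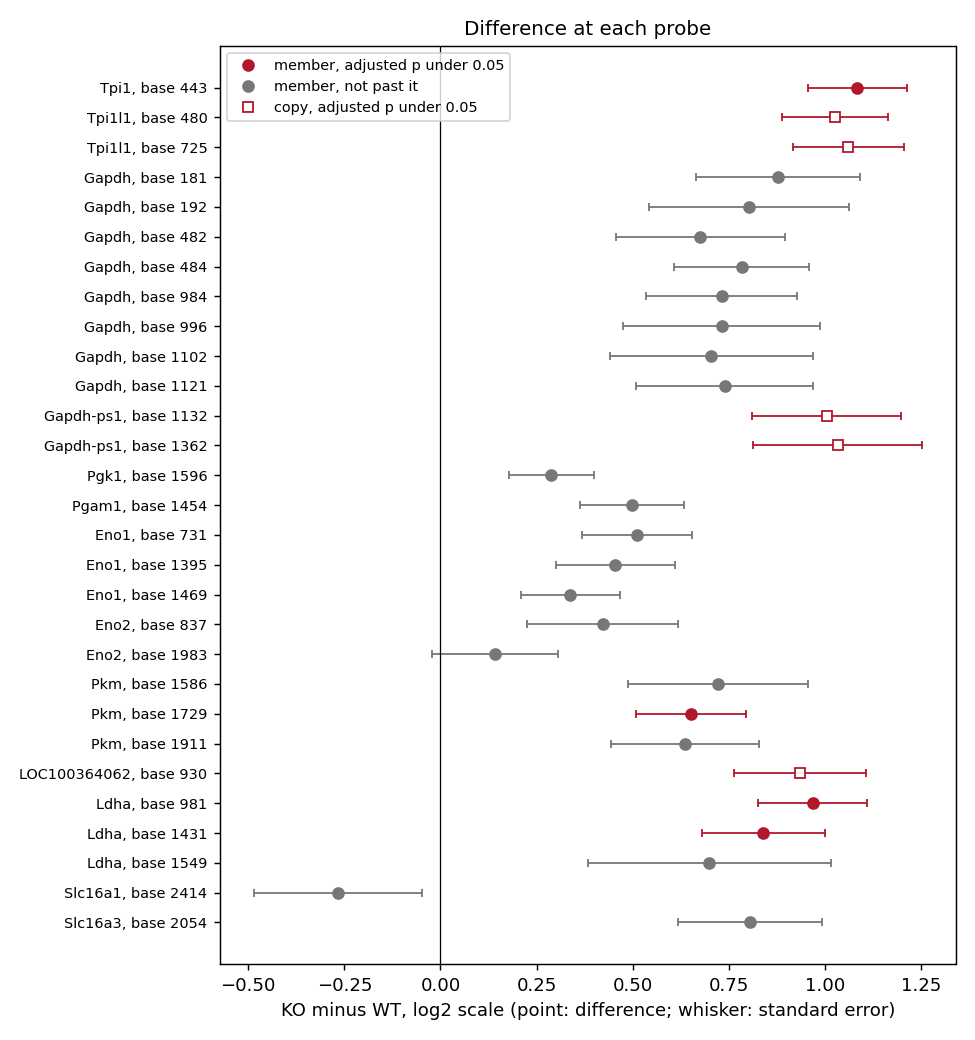
KO minus WT at the 24 probes of the 10 genes that passed the filter and at 5 probes marked as copies (x axis: log2 difference; point: difference; whisker: standard error from limma; y axis: gene and first base of the probe on its transcript). Those 5 are filed under Tpi1l1, Gapdh-ps1 and LOC100364062. The Tpi1l1 probes lie at the place of Tpi1, so they are no separate gene. The LOC100364062 probe lies upstream of the Pkm probes on the same strand, and whether it reads Pkm was not tested. Of the 24, 23 lie right of 0, and the coloured ones, Tpi1, 2 of Ldha and 1 of Pkm, passed an adjusted p of 0.05 over all probes.

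Over the 24 probes of the 10 genes that were tested, 4 were called higher and 0 lower in the fit of all probes, whose background is 0.704% higher and 0.442% lower. Of the 24, 23 were positive, against 54.3% of all probes, and 21 had an unadjusted p under 0.05 with a higher value in KO, against 9.2%. The median difference was 0.70, against 0.03 over all 17886 probes. Groups did not overlap at 7 of the 24, against 1.74% of all probes. Probes of 1 gene read the same RNA and are not replicates of each other.

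Ldha encodes the A subunit of lactate dehydrogenase, the form that predominates in tissues that make lactate. At base 981 it read 3.49 at the lowest (KO 5), 3.66 at the median and 3.91 at the highest (KO 7) in KO, against 3.12 in WT 3 and 2.63, 2.58, 2.69 and 2.54 in WT 5 to WT 8. All KO arrays lay above all WT arrays, with WT 3 the nearest. The probe rose by 0.97 (SE 0.14, adjusted p = 0.0116), 1.96-fold, and kept its call without any 1 array except WT 5, where adjusted p was 0.0505.

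At base 1431 Ldha read 5.90 at the lowest, 6.07 at the median and 6.16 at the highest in KO, against 5.72 in WT 3 and 4.91 to 5.49 in WT 5 to WT 8. The groups did not overlap there either. It rose by 0.84 (SE 0.16, adjusted p = 0.0342), a call kept without KO 5, KO 6, WT 3 or WT 7 and lost without any 1 of the other 8 arrays, with adjusted p up to 0.114.

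The third Ldha probe, at base 1549, is the brightest and so stood for the gene in the test of all genes. It read 6.62, 6.68 and 6.63 in KO 1 to KO 3, 7.30 in KO 4, 7.98 in KO 5, 6.48 in KO 6 and 6.61 in KO 7, against 6.21 in WT 3 and 5.55, 6.31, 7.22 and 5.71 in WT 5 to WT 8. The 3 highest arrays, KO 4, KO 5 and WT 7, were all on slide 3. The difference was 0.70 (SE 0.32, adjusted p = 0.303) and 0.83 (adjusted p = 0.0472) with slide as a block. It was 0.59 on slide 1, 1.09 on slide 2 and 0.88 on slide 3. So the gene row missed the threshold while 2 of its 3 probes passed it, and all 3 were higher in KO. The called probes at bases 981 and 1431 each share a run, of 28 and 44 bases, with 1 probe filed under another name. Those other probes rose by 1.06 (adjusted p = 0.00707) and 0.88 (adjusted p = 0.0243) in the fit of all probes, and the probe at base 1549 shares none. Whether Ldha alone gave the signal of the called probes cannot be told from them.

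Ldhb encodes the B subunit of the same enzyme, the form that predominates in heart and in neurons. It was well above background on 3 arrays, KO 5, KO 6 and KO 7, with -2.67, -2.82 and -2.83. On KO 1 to KO 4 it was not well above background, with -7.34 to -5.85, nor on the 5 WT arrays, with -7.16 to -5.45. With 3 of 12 arrays it did not pass the filter and was not tested. It was picked out after its values were seen. The arrays KO 5 to KO 7 are also those with the lowest Vdac1 signal, 1.20 to 1.53, against 2.26 to 2.68 in KO 1 to KO 4, and whether the one bears on the other was not tested.

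Of the plasma membrane transporters of lactate, the mean of Slc16a3 was higher and that of Slc16a1 lower in KO. The response of the pair was unequal by an exact test over all arrays. In arrays numbered 5 to 8 alone it reached the smallest p that the splits allow, as given further on. By itself that p could not pass after adjustment over the pairs. Slc16a3 encodes MCT4, which is known for lactate export from glycolytic cells, and Slc16a1 encodes MCT1, a widespread transporter. Slc16a3 read 3.01 at the lowest (KO 1), 3.15 at the median and 3.35 at the highest (KO 5) in KO, against 3.15 in WT 3 and 2.06, 2.15, 2.53 and 1.98 in WT 5 to WT 8. The KO arrays lay close together, and WT 3 lay among them while the other WT arrays were below. The difference was 0.81 (SE 0.19, adjusted p = 0.0567), 1.75-fold, with 3.18 ± 0.11 (SD, n = 7) in KO and 2.37 ± 0.48 (SD, n = 5) in WT. Without WT 3 it was 1.00 (adjusted p = 0.00275), a value that mixes genotype with sample number. With slide as a block it was 0.85 (adjusted p = 0.0436).

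Slc16a1 read -1.20 at the lowest (KO 4), -0.74 at the median and 0.03 at the highest (KO 7) in KO, against -0.62 in WT 3 and -0.12, -0.70, -0.19 and -0.46 in WT 5 to WT 8. KO 1 to KO 4 lay between -1.20 and -0.74, and KO 5 to KO 7 between -0.40 and 0.03. The difference was -0.27 (SE 0.22, adjusted p = 0.590), and -0.32 (adjusted p = 0.478) without WT 3. Blocking on the number set, 1 to 4 or 5 to 8, gave -0.046, and the arrays numbered 5 to 8 by themselves gave 0.12. A further probe on the Slc16a1 transcript gave -0.26. Within slides the sign varied, with 0.36 on slide 1, -0.83 on slide 2 and -0.35 on slide 3.

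Slc16a3 minus Slc16a1, taken within each array, was higher in KO by 1.07 (exact two-sided permutation test over 792 splits, p = 0.00758, adjusted p = 0.0303 over 4 pairs, smallest possible p 0.00126). WT 3 lay above KO 5, KO 6 and KO 7, and every other WT array lay below every KO array. The call was lost without any 1 of KO 1 to KO 5, WT 5 or WT 8, with adjusted p from 0.0520 to 0.0692, and kept without KO 6, KO 7, WT 3, WT 6 or WT 7. The test leaves the number set out of account. In numbers 5 to 8 alone the pair gave 0.95 with no overlap of the groups (exact permutation p = 0.0286, the smallest that 35 splits allow, adjusted p = 0.114). The transporter gene Slc16a7, for MCT2, which is known from neurons, differed by -0.78 (adjusted p = 0.427), and Slc16a3 minus Slc16a7 was higher by 1.58 (exact permutation p = 0.0354, adjusted p = 0.0708). Without WT 3 that pair gave 2.08 (adjusted p = 0.0182), and without KO 6 it gave 1.76 (adjusted p = 0.0476). Bsg, whose product basigin brings MCT1 and MCT4 to the membrane, differed by 0.38 (adjusted p = 0.223).

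**Figure D3:**
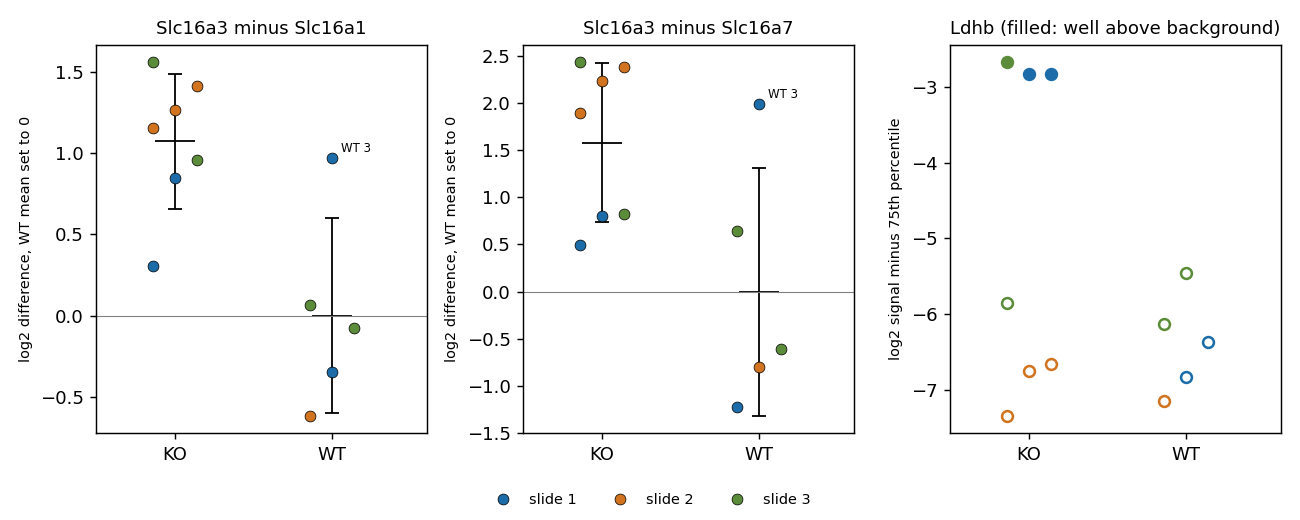
Left and middle: Slc16a3 minus Slc16a1 and Slc16a3 minus Slc16a7 on each array (y axis: log2 difference with the WT mean set to 0; bar and whisker: mean and SD; colour: slide). Right: Ldhb on each array (y axis: log2 signal minus the 75th percentile; filled points are well above background), where KO 5, KO 6 and KO 7 stand above all others.

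Because WT 3 and KO 1 to KO 4 share low sample numbers and lay together on the first component, the genotype difference was also computed within each set of numbers. In numbers 5 to 8 alone, 3 KO and 4 WT arrays, 3 of the 10 genes rose. Tpi1 was higher by 1.26 (adjusted p = 0.00408). Gapdh was higher by 1.19, at an adjusted p of 0.0400, and Slc16a3 by 1.06, at 0.0176. The background there was 2.27% of features, and the median of the 10 was 0.61. Of the markers, Nr4a2, which passed the filter mainly through WT arrays, was lower in that set (-0.97, adjusted p = 0.0186). Its part in these values was not tested. In numbers 1 to 4, where WT 3 is the lone WT array and its spread is assumed to be that of the KO arrays, limma called 0 of the 10, with 2 at an unadjusted p under 0.05, a background of 0.319% and a median of 0.11. There Tpi1 differed by 0.90 (adjusted p = 0.113), Gapdh by 0.11 and Slc16a3 by -0.02. The test of the difference between the 2 sets called 0 of the 10 genes, with 2 at an unadjusted p under 0.05. Over all features this limma test called 0.638% with a higher and 1.3% with a lower difference in numbers 5 to 8, with the sign counted. Its smallest adjusted p among the members belonged to Slc16a3, at 1.08 (SE 0.26, adjusted p = 0.0610), and Gapdh followed with 1.08 (SE 0.41, adjusted p = 0.220).

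By slide, 10 of 10 genes were higher in KO on slide 1, 8 of 10 on slide 2 and 9 of 10 on slide 3. Slide 2 sets KO 1 to KO 3 against WT 5 alone. With slide as a block, limma called 5 of the 10 higher, Tpi1, Gapdh, Pgam1, Ldha and Slc16a3, against a background of 1.72%. With the number set as a block it called 2, Tpi1 and Slc16a3, against 3.03%, and the median of the 10 was 0.46. In that fit the marker Pdgfrb was lower (-0.62, adjusted p = 0.0316), and its part was not tested either. By array, 8 to 10 of the 10 genes lay above the WT mean on each KO array, against 8 on WT 3 and 2 to 5 on the other WT arrays.

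**Figure D4:**
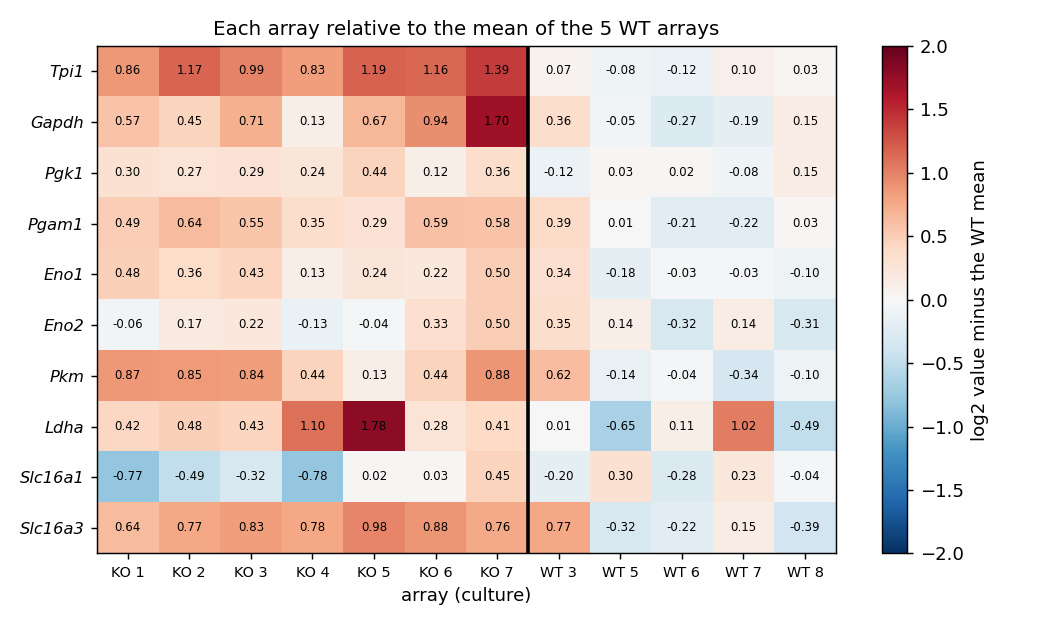
Each gene on each array, as log2 value minus the mean of the 5 WT arrays (columns: KO left of the line, WT right of it; rows in pathway order; printed numbers are the values). The Tpi1 row separates all KO from all WT arrays, and the WT 3 column has 8 of 10 genes above the WT mean.

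The rest of the pathway was read from fixed lists. Of the upper glycolysis list, from glucose transport to aldolase, 16 of 20 genes were tested, and limma called 1 higher and 0 lower: Aldoa, the aldolase that feeds Tpi1, rose by 0.85 (SE 0.15, adjusted p = 0.0240). It read 2.99 to 3.73 in KO, against 2.42 in WT 3 and 2.59, 2.46, 2.69 and 2.68 in WT 5 to WT 8, with no overlap. Its call was lost without KO 1, KO 2, KO 3, WT 5, WT 6, WT 7 or WT 8, with adjusted p up to 0.0874, and in the deposited value table (0.73, adjusted p = 0.0582). In numbers 5 to 8 alone 3 genes of the list were higher and 1 lower, and Aldoa was not called (0.67, limma adjusted p = 0.0655). Over all 14739 features 2.27% were higher there, and 345 features were lower. With the number set as a block 3 were higher and 0 lower, Aldoa among them, against 3.03% of all features higher. The difference between the number sets rests on WT 3 as the lone WT array with a low number, so only its size is given here. It was 2.54 for the brain aldolase gene Aldoc and 1.07 for the hexokinase gene Hk2, higher in numbers 5 to 8. For Pfkfb3, for an enzyme that makes an activator of phosphofructokinase, it was -0.93. These 3 genes were named after their values were seen. Aldoc read -0.09 in WT 3, against -4.61 to -3.84 in WT 5 to WT 8. By itself Pfkfb3 fell in numbers 5 to 8 (-0.79, limma adjusted p = 0.0191) and differed by 0.14 in numbers 1 to 4. The list's median was 0.39, with 14 of 16 positive, against 55.2% of all features. Of the isoforms and partners, 8 of 16 were tested and 2 called, Tpi1l1 and Gapdh-ps1, with a median of 0.33. As described above, neither is independent of the probes of Tpi1 and Gapdh.

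Further along, 0 of 12 tested genes of pyruvate entry into mitochondria were called by limma and 3 were higher at an unadjusted p under 0.05. The smallest p was that of Pdk1, a kinase that turns off pyruvate dehydrogenase, with 0.79 (adjusted p = 0.145). Of the shuttles that carry NADH electrons into mitochondria, 0 of 7 were called and 1 was lower at an unadjusted p under 0.05, Gpd2, the mitochondrial glycerol phosphate dehydrogenase (-0.61, adjusted p = 0.194). Of 13 tested regulators and Pkm splicing factors, 0 were called, with 1 higher and 1 lower at an unadjusted p under 0.05. Myc, a transcription factor known to drive glycolytic genes, had the smallest p, with -0.63 (adjusted p = 0.237). The medians of the 3 lists were 0.23, 0.12 and 0.03.

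**Figure D5:**
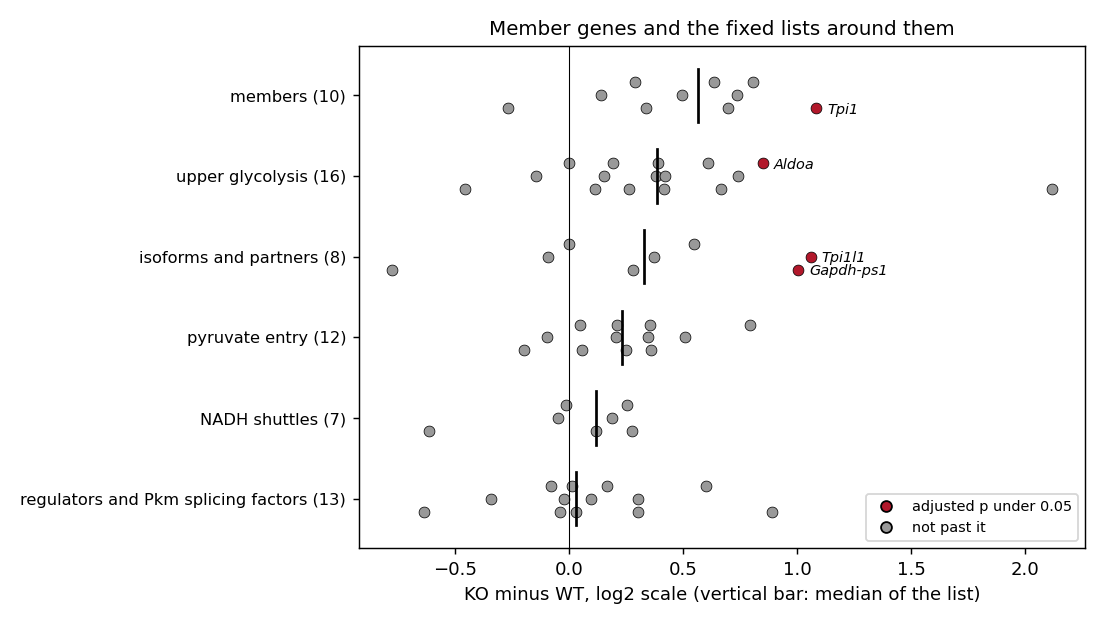
KO minus WT for each tested gene of the 10 members and of the 5 fixed lists around them (x axis: log2 difference; bar: median of the list; number in brackets: genes tested). Coloured points, Tpi1, Aldoa, Tpi1l1 and Gapdh-ps1, passed an adjusted p of 0.05 over all features.

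The gene symbols whose values most resembled those of 3 members over the 12 arrays were listed as a description. The arrays share genotype, slide and sample numbers, so no p is given. For Tpi1 they were Tpi1l1 (Pearson r = 0.992), Chid1 (0.944), the mitophagy receptor gene Bnip3 (0.936), C1h19orf12 (0.936) and the complex III gene Uqcrh (0.927). For Slc16a3 they included Pebp1 (0.970), the desaturase gene Scd2 (0.968), the sterol sensor gene Insig1 (0.943) and Ptpn6 (0.940). For Ldha at base 1549 they were Aspg (0.947), Timm8b (0.943), Helz2 (0.934), Mrpl18 (0.934) and Blvrb (0.933).

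Promoters were read from RefSeq (build GRCr8, 250 bases before to 50 after the annotated start) for 9 of the 10 genes, 10 promoters in all, with Pgk1 not used here. They were searched on both strands for ACGTG and GCGTG, the core that hypoxia-inducible factors bind, where ACGTG is also part of the E-box CACGTG and then matches on both strands. At least 1 match lay in 7 of the 10 promoters, against 41.6% of 33469 promoters. There were 3 or more matches in 3 of the 10, against 8.2% of all promoters: Ldha held 6, 3 of each core, Slc16a1, the member with a lower mean in KO, held 3 of ACGTG and 1 of GCGTG, and Gapdh held 1 and 2. Tpi1, Pkm and Slc16a3 held 0 in this window. The promoters of Ldha, at chr1:106507842-106508141 on the plus strand, and Tpi1, at chr4:159305039-159305338 on the minus strand, are printed as the ends of that range among the genes whose probes rose, with matches in capitals.
Ldha promoter: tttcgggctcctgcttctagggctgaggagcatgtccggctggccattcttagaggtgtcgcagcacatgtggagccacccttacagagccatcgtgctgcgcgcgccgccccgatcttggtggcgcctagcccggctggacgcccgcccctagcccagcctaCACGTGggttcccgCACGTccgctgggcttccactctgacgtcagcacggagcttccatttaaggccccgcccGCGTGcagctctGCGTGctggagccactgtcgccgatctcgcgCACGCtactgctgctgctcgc
Tpi1 promoter: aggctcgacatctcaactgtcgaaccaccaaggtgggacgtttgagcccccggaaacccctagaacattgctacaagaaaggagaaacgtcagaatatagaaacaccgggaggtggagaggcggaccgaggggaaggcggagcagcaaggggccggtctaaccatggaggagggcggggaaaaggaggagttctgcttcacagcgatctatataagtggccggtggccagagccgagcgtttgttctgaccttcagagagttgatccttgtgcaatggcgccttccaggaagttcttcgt
A match is a description of these letters, and no match says nothing about binding elsewhere.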

How the data were processed

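RNA was isolated with Trizol and marked with the dye Cy3, per the labels' protocols. Agilent Feature Extraction read the images, in version 10.7 per the submitters' processing notes and 10.1.1.1 per the file headers. In the deposited scanner files a spot's intensity is linear, and yes-or-no flags stand in other columns. The deposited value table holds log2 values, alike in every column once sorted, with a median of 3.06 and a Spearman correlation of 0.999 with that array's own scanner signal, from which its scale and direction follow. Groups and numbers come from the sample titles, and slides from the file headers.

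From these, log2 of the processed signal minus log2 of each array's 75th percentile was computed over 58717 spots that are not controls. Flagged spots were left out, spots of a probe averaged, and the brightest probe taken for a gene. Probes were named through RefSeq's rat gene table, 21109 by accession, 6684 by symbol and 424 by synonym, and 17381 kept the file's name. KO was compared with WT over all arrays with limma (version 3.58.1, run under R 4.3.3; lmFit, then eBayes, two-sided, Benjamini-Hochberg over 14739 features or 17886 probes), and isoform pairs with an exact permutation test. On simulated data with 50 genes changed at each size among 14739 features, the test recovered 4% at a log2 change of 0.5, 66% at 1, 88% at 1.5 and 98% at 2, with 6 false calls. The number of arrays limits the precision. Sequence was read from the array files (rn4) and RefSeq (GRCr8), and figures were drawn with matplotlib.

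The members, the lists and the split by sample number were chosen with earlier results of these data known. The text names the 10 members, their probes, up to 4 called genes of each list or the one with the smallest p, Vdac1, and the 5 symbols most like Tpi1, Ldha and Slc16a3. One result under this rule is not reported here. Ldhb, Th, Ddc, Slc6a3, Pgam2, Pklr, LOC100364062, Eno3, Slc16a7, Bsg, Col3a1, Aldoc, Hk2 and Pfkfb3 were named as isoforms, copies, partners, markers or list genes outside that rule. Alternatives were other background corrections, scalings and filters, the slide, number set or replicate number as a block, and single arrays, slides or number sets left out.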

Additional observations from a re-analysis of the deposited data

Results flagged for a closer look

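In 1 of 20 groups of arrays, for the 10 genes in KO and in WT, a single array stood far from the rest of its group by Dixon's criterion. Eno1 at base 1469 read 4.38 in WT 3, against 4.01 in the nearest of the other WT arrays and 3.87 in the lowest. The gap made up 0.715 of the range of the WT group. Chance flags about 1 in 20 such groups. WT 3 also stood with KO 1 to KO 4 on the first principal component of all features, and at the Eno1 probe at base 731 it was the lowest array. The part of the sample numbers in this value was not tested.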

How the results depend on the processing

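Tpi1 passed in 23 of 28 alternatives with a difference from 0.90 to 1.26. It missed the threshold with no filter on dim probes and with the replicate number as a block. It also missed it among the low numbers and in slide 1 alone and slide 3 alone. Why it missed the threshold in these settings was not tested. Slc16a3 passed in 6 of 28, Ldha in 3, Gapdh, Pgam1 and Pkm in 2 each, and Pgk1, Eno1, Eno2 and Slc16a1 in 0. The sign of some members turned: Slc16a1 was 0.033 with the replicate block, 0.12 in numbers 5 to 8 alone and 0.36 in slide 1 alone, Eno2 was -0.30 in numbers 1 to 4 alone and -0.029 in slide 2 alone, and Slc16a3 was -0.017 with the low numbers alone. Under normexp the Ldha probes at bases 981 and 1431 passed (adjusted p = 0.0300 and 0.0173) and the Pkm probe at base 1729 did not (0.131), and Aldoa passed (0.0442) while Gapdh-ps1 did not (0.0976). Quantile normalization also cost Gapdh-ps1 its call (0.0553), and in the deposited table both Gapdh-ps1 (0.0608) and Aldoa (0.0582) lost theirs. The median of all features was 0.04 as reported and -0.04 with normexp. The cause of the changes below was not tested.

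Over all genes 103 rose and 58 fell. The rises and falls were 16 and 9 with normexp, 0 and 0 with no filter, 181 and 108 with probes well above background on all 12 arrays, 253 and 151 with slide as a block, 446 and 303 with the number set as a block, 334 and 345 among arrays numbered 5 to 8, 47 and 5 among those numbered 1 to 4, 0 and 0 in slides 1 and 3 alone, and 1061 and 923 in slide 2 alone. The rises were 56 with quantile normalization, 58 with the percentile over bright probes and 53 in the deposited table. Leaving out 1 array gave 9 to 383 rises and 3 to 268 falls. Over all probes, 126 rose and 79 fell, and these were 21 and 10 with normexp, 211 and 131 with the strict filter, 284 and 188 with the slide block, 528 and 385 with the number set, 360 and 393 in numbers 5 to 8, 47 and 6 in numbers 1 to 4, 0 and 0 in slides 1 and 3, and 1102 and 1061 in slide 2. The probe rises were 66 with quantile normalization, 73 with the bright-probe percentile and 64 in the deposited table, and 13 to 442 rises and 4 to 333 falls without 1 array.

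Of the 10 members 1 was called. Over all features 0.699% were called higher. The count of members was 0 with no filter, 2 with the strict filter and 2 with the mean of a gene's probes. It was 5 with the slide block (1.72% of all features), 2 with the number set (3.03%) and 3 in numbers 5 to 8 (2.27%). It was 0 in slides 1 and 3, and 1 to 4 without 1 array, with 4 without WT 3. Of the member probes 4 were called, where 0.704% of all probes were called higher. This was 7 with the strict filter, 14 with the slide block, 10 with the number set and 10 in numbers 5 to 8. It was 0 in slides 1 and 3, and 1 to 8 without 1 array. The counts over all features and all probes changed with the setting too, as given above, so the member counts are not compared between settings. Vdac1 passed with quantile normalization (-1.33, adjusted p = 0.0447), the deposited table (-1.35), the strict filter (-1.23), the mean of its probes (-1.20), the slide block (-1.38), the number set (-1.58) and numbers 5 to 8 alone (-1.80), and it was -1.34 to -1.10 without 1 array.

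Slc16a3 minus Slc16a1 was 0.95 in numbers 5 to 8 alone (adjusted p = 0.114) and 0.92 to 1.31 without 1 array, and Slc16a3 minus Slc16a7 was 1.29 with normexp (adjusted p = 0.0328) and 1.27 to 2.08 without 1 array. The interaction of genotype and number set called 94 features with a higher and 192 with a lower difference in numbers 5 to 8, against 0 and 2 with normexp.

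KO and WT share the numbers 3, 5, 6 and 7. The deviations of same-numbered arrays from their group means correlated at 0.461, -0.11, 0.0729 and 0.0501. By that measure WT 3, WT 5, WT 6 and WT 7 were most like KO 1, KO 7, KO 5 and KO 5. The main test did not treat the samples as pairs. Whether same-numbered cultures were handled together cannot be told from these values. In the paired fit with the replicate block 0 genes rose, 0 fell, 0 probes passed and 0 members were called.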
